A study of Mus musculus with 17 samples.

Results

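Sst interneurons, the GABAergic neurons that make the neuropeptide somatostatin, were examined by single-nucleus RNA sequencing of posterior brain from 17 mice. A nucleus was chosen by its deposited label and by 3 measured levels. It carried the label for neurons, had no doublet call and lay outside the authors' cluster 13. It held 3 or more UMIs (unique molecular identifiers, each counting 1 captured RNA molecule) of Gad1 and Gad2 together and over 2 times as many of these as of Slc17a7 and Slc17a6 together, and it held 3 or more UMIs of Sst. The rule found 225 nuclei among 284074 (0.0792%), which were 1.98% of the 11386 nuclei that passed the rule without its Sst part, called GABAergic nuclei here. Levels of Sst, of the Gad genes and of the Slc17a genes are therefore part of the choice and are given as descriptions.

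All mice were female, 2.3 months old and homozygous for a knock-in of the human transferrin receptor, and no group without this allele was analysed here. The 4 groups were saline (4 mice), Malat1 ASO (4 mice at 2 mg/kg), anti-TfR:Malat1 (6 mice at 50 mg/kg, named TfR-Malat1 in the labels) and OTV:Malat1 (3 mice at 50 mg/kg). Each mouse received 4 intravenous doses within a treatment of 24 days, with harvest 72 hours later than the final one. An ASO is a short synthetic strand that pairs with its target RNA, here Malat1. In the anti-TfR and OTV (oligonucleotide transport vehicle) groups it was joined to a protein that binds the transferrin receptor, a carrier of iron across the endothelium of the brain. The labelled dose of the ASO alone differs from that of the conjugates, which also contain a protein. Whether the groups match in the amount of oligonucleotide was not worked out here.

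Somatostatin interneurons arise mainly in the medial ganglionic eminence, where the transcription factors Lhx6 and Sox6 direct their development. In cortex and hippocampus most of them place their synapses on the dendrites of excitatory neurons, and their own excitatory inputs strengthen with repeated firing. Known subtypes include Martinotti cells, whose axons climb to the outermost cortical layer, and rare long-range projecting cells that make nitric oxide, neuropeptide Y and chondrolectin.

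The nuclei were few. Saline animals gave 17, 40, 10 and 5 of them, Malat1 ASO animals 27, 13, 10 and 9, anti-TfR:Malat1 animals 21, 17, 18, 6, 6 and 4, and OTV:Malat1 animals 9, 8 and 5. The groups thus held 72, 59, 72 and 22 nuclei. Their UMIs summed to between 25177 and 274240 per animal and 1441846 in all, out of 55393588 to 79866411 UMIs per animal over all nuclei. A Sst nucleus held 2289 to 15782 UMIs (median 5999). Only 3 animals had 20 or more Sst nuclei, so the tests below used all 17 animals and rest on small sums. P-values measure the spread between these animals, each of which gave 1 library. Of 273792 barcode sequences, 10044 (3.67%) occurred in more than 1 library. That held for the barcodes of 12 Sst nuclei, and no barcode was shared by a pair of Sst nuclei. The authors' doublet calls removed 178 nuclei that otherwise met the rule, which would have made 403.

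The minimum of 3 Sst UMIs lay on a continuous slope. A Sst nucleus held 3 to 23 Sst UMIs (median 4) and 3 to 16 of Gad1 and Gad2 together (median 4). Just inside the limit, 103 nuclei had 3 Sst UMIs, and 77.7% of them held a UMI of Sox6. Just outside, 228 GABAergic nuclei had 2 Sst UMIs, and 53.9% held Sox6. Malat1 made up 5.2% of the UMIs inside and 5.11% outside. Few excitatory nuclei reached this minimum: 0.0476% of them (median 6373 UMIs) held 3 or more Sst UMIs, although 7.19% held at least 1. Whether these UMIs came from RNA outside the nuclei was not tested.

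Genes that the rule did not use were read against the label. Of the 225 nuclei, 80.9% held a UMI of Sox6 (95% exact Clopper-Pearson interval 75.1% to 85.8%, which covers counting error only). Satb1, a chromatin organizer needed for the maturation of these cells, was found in 76.4% and the transcription factor Maf in 65.3%. Sox6 interneurons without Sst are GABAergic nuclei with 3 or more UMIs of Sox6, fewer of Adarb2 than of Sox6, and fewer than 3 each of Sst and Vip. Of these 1808 nuclei, 272 held 1 Sst UMI and 90 held 2. Lhx6 was detected in 24.0% of Sst nuclei, beside 21.7% of Sox6 interneurons without Sst, 2.45% of Adarb2 interneurons and 0.0635% of excitatory neurons. Lhx6 or Sox6 was found in 190 nuclei (84.4%), and 35 nuclei held neither. Of 14 markers of GABAergic neurons outside cortex and hippocampus, Gata2 and Tal1 had 0 UMIs, which allows a share of up to 1.33% of nuclei with a UMI, and the other 12 had 476 UMIs together. Foxp1, a transcription factor on that list, made up 358 of these UMIs and was found in 73.3% of Sst nuclei. Its level was 0.538 times that in the other GABAergic nuclei, and it was higher in Sst nuclei in 0 of 17 animals. Meis2 made up 76 of the UMIs and was found in 6.67% of Sst nuclei. The 35 nuclei without Lhx6 or Sox6 stayed in the class. Vip, the peptide of another interneuron class, was found in 3.11%. Pvalb, the calcium buffer of fast-spiking basket cells, was found in 4.44%, against 22% of Sox6 interneurons without Sst.

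**Figure D1:**
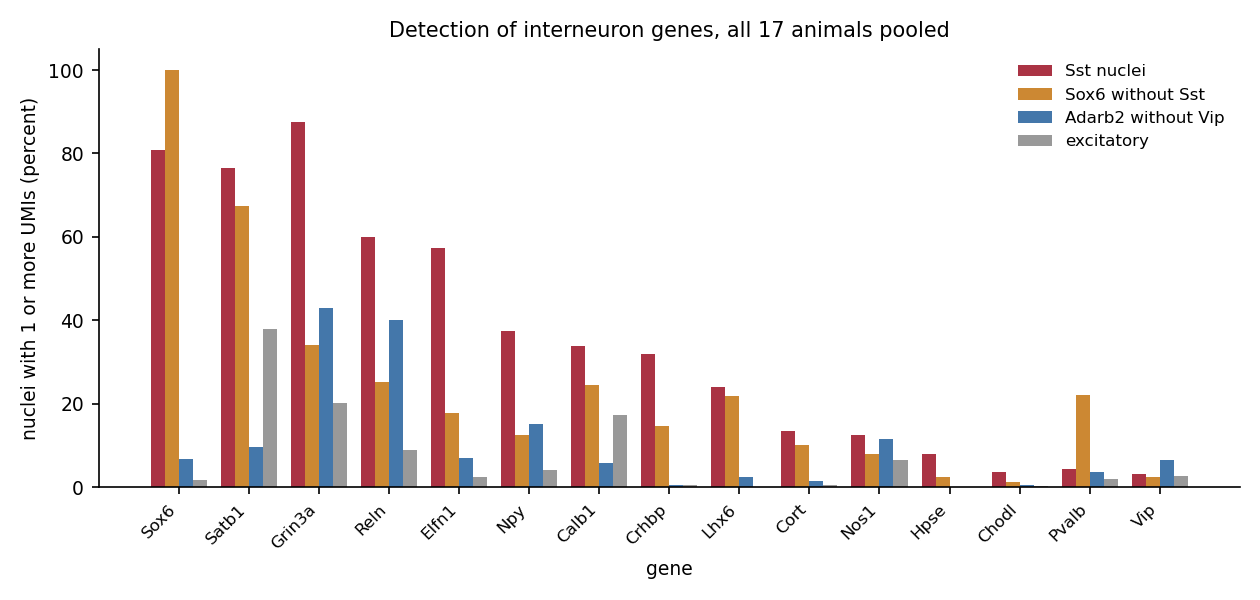
Percent of nuclei with 1 or more UMIs (vertical axis) for 15 interneuron genes (horizontal axis) in 4 classes of nuclei, all 17 animals pooled. Grin3a, Reln, Elfn1, Npy and Crhbp have their highest bars in Sst nuclei, while Pvalb is highest in Sox6 interneurons without Sst.

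Receptors and synaptic genes known from Sst interneurons were detected widely. Grin3a, an NMDA receptor subunit that lowers calcium entry, was found in 87.6% of Sst nuclei, 34.1% of Sox6 interneurons without Sst, 43.0% of Adarb2 interneurons and 20.2% of excitatory neurons. Elfn1, a postsynaptic protein that recruits the glutamate receptor mGluR7 to incoming terminals, was found in 57.3% of Sst nuclei and 17.8% of Sox6 interneurons without Sst. These classes had median depths of 5999 UMIs in Sst nuclei, 5650.5 in Sox6 interneurons, 4443 in Adarb2 interneurons and 6373 in excitatory neurons.

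The levels of the genes leading over the other GABAergic nuclei are given next as CPM, the UMIs of a gene scaled to a common total per animal, averaged over 17 animals with the SD. These are a description of chosen nuclei, with no test. Genes were taken at 50 CPM or more in Sst nuclei, so a gene low elsewhere could enter only by being high here. Sst itself, part of the rule, stood at 711 ± 118 CPM against 28.3 ± 7.19. Crhbp, which binds and buffers corticotropin-releasing hormone, stood at 82.2 ± 66.1 against 9.33 ± 4.42 (a ratio of 8.81). Elfn1 stood at 231 ± 88.4 against 28.2 ± 5.00, a ratio of 8.22, and was higher in Sst nuclei in 17 of 17 animals.

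Trhde, the enzyme that breaks down thyrotropin-releasing hormone outside the cell, stood at 1201 ± 479 CPM against 180 ± 29.3. Trpc6, a calcium-permeable cation channel, stood at 324 ± 130 against 47.2 ± 7.82. Lypd6, a membrane-anchored protein that modulates nicotinic receptors, stood at 144 ± 59.2 against 29.5 ± 6.24. All 3 were higher in Sst nuclei in 17 of 17 animals. The laminin chain gene Lama4 (ratio 10.8) and the Wnt5a receptor gene Ror2 (ratio 7.57) were higher in 15 of 17. The other 7 of the 15 leading genes were Gm28175, 4930473D10Rik, 9630002D21Rik, Gm20754, 4930509J09Rik, Pstpip2 and Gm5087, with ratios from 4.92 to 7.22. Of these, Gm20754 had the highest level, 974 ± 188 CPM against 189 ± 42.8.

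**Figure D2:**
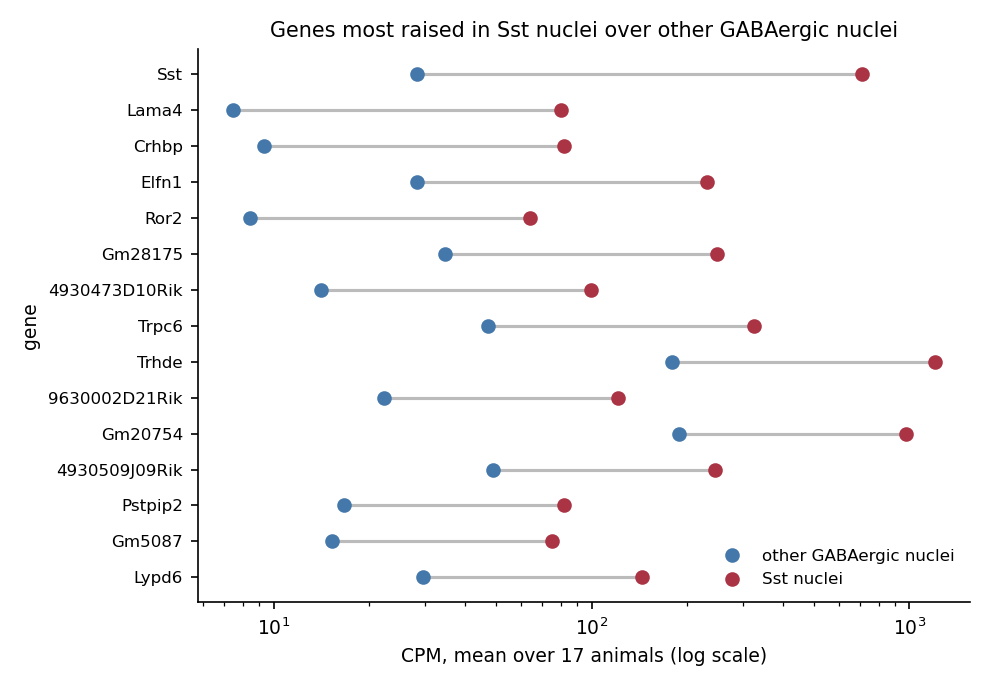
Mean CPM over 17 animals (horizontal axis, log scale) of the 15 genes with the highest ratio of Sst nuclei (red) to other GABAergic nuclei (blue). The ratio is widest for Sst, at 711 against 28.3 CPM, and narrowest for Lypd6, at 144 against 29.5 CPM.

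Neurotransmitter receptors and channels on the lists differed in both directions. The muscarinic acetylcholine receptor Chrm3 stood at 3.12 times its level in other GABAergic nuclei, the kainate receptor subunit Grik1 at 2.33 times and the AMPA receptor subunit Gria1 at 2.32 times. On the low side, the neuregulin receptor Erbb4 stood at 0.320 times, the potassium channel Kcnq5 at 0.269 times and the GABA-A receptor subunit Gabrg3 at 0.349 times. The neuregulin gene Nrg1 stood at 0.223 times and Arpp21, which encodes a cyclic AMP-regulated phosphoprotein, at 0.158 times. Erbb4, Kcnq5, Gabrg3, Nrg1 and Arpp21 were lower in Sst nuclei in 17 of 17 animals.

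Subtype genes were each detected in a part of the class. Reln, a secreted matrix protein, was found in 60.0% of Sst nuclei, the neuropeptide gene Npy in 37.3%, the calcium buffer gene Calb1 in 33.8% and Crhbp in 32%. Cort, a peptide gene related to Sst, was found in 13.3%. These genes overlapped: 38 nuclei held none of Reln, Npy, Calb1 and Crhbp, 65 held 1 of them, 71 held 2, 44 held 3 and 7 held all 4. For each of Reln, Npy, Calb1, Crhbp and Cort, nuclei with a UMI had a higher median depth than those without. The gap was smallest for Npy, at 6103 against 5865 UMIs, and largest for Cort, at 7308 against 5919. The part of depth in these shares was not tested.

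Nos1, the neuronal nitric oxide synthase, picked out 12 nuclei at 3 or more UMIs, from 9 animals. Npy was present in 11 of these 12 (91.7%) and in 34.3% of the other 213. Chodl, which encodes chondrolectin, was present in 7 of them (58.3%) and in 0.469% of the others. Tacr1, the substance P receptor, was present in 9 of them (75%) and in 7.04% of the others. Reln was found in 0 of the 12 and in 63.4% of the others.

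Hpse, which encodes heparanase, was found in 18 nuclei of 10 animals with a different set. All 18 held Reln, 16 held Elfn1, 2 held Calb1 and 0 held Nos1. Among the other 207 nuclei, 56.5% held Reln and 35.7% held Calb1. Those 207 had a median of 5869 UMIs, beside 7272 for the 18 with Hpse. Of the 76 nuclei with Calb1, 75 held Sox6 and 55 held Reln. The groupings by Nos1 and Hpse were chosen after their values had been seen and pool nuclei of several animals, so they carry no test.

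Malat1, the target of the oligonucleotide, is a long noncoding RNA kept in nuclear speckles (gene ENSMUSG00000092341.3, GRCm38 chromosome 19, 5795690 to 5802672, minus strand). The treated groups ask how far each agent lowered it in these cells. Malat1 made up 7.09%, 6.16%, 8.45% and 3.68% of the UMIs of Sst nuclei in the saline animals. In OTV:Malat1 it made up 4.23%, 4.68% and 1.62%. In anti-TfR:Malat1 it made up 3.76%, 5.49%, 6.77%, 5.74%, 5.15% and 6.20%. In Malat1 ASO it made up 5.49%, 4.59%, 6.82% and 3.28%. All treated groups overlapped saline, and the OTV:Malat1 group did so only through the low saline replicate 4, since the other 3 saline animals lay above all 3 of its animals.

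**Figure D3:**
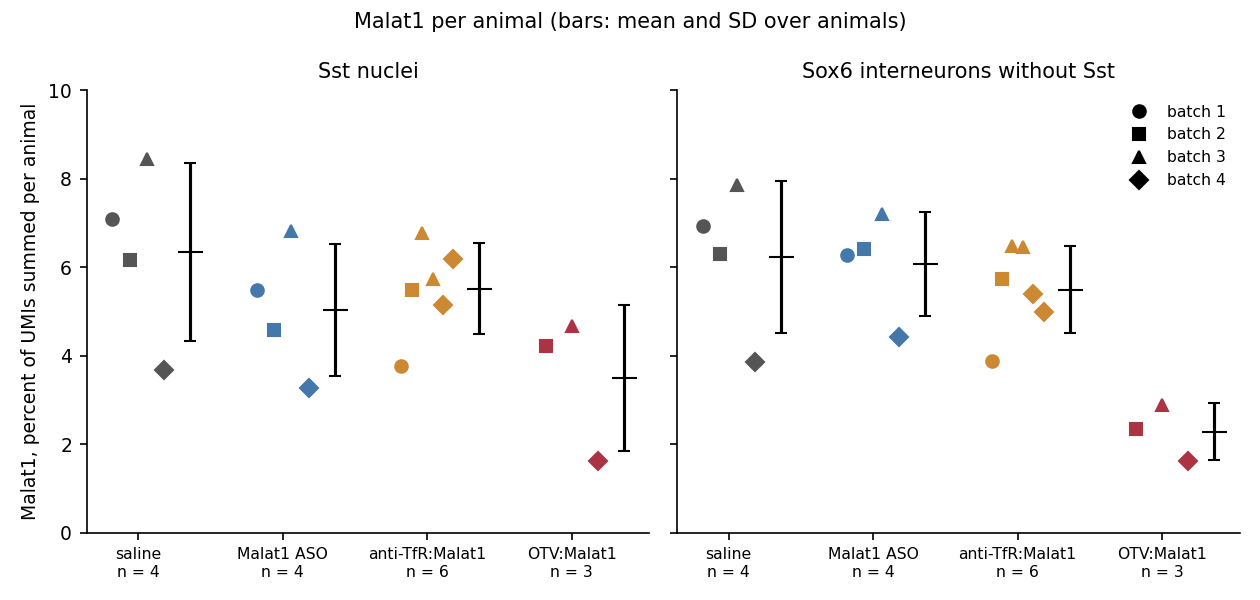
Malat1 as a percent of the UMIs summed per animal (vertical axis) in Sst nuclei and in Sox6 interneurons without Sst, by group. Each point is an animal, its shape gives the deposited batch, and bars give mean and SD. The OTV:Malat1 animals reach 4.68% in Sst nuclei and 2.90% in Sox6 interneurons without Sst.

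The group means were 6.35 ± 2.01% in saline (SD, n = 4), 5.05 ± 1.49% in Malat1 ASO (n = 4), 5.52 ± 1.03% in anti-TfR:Malat1 (n = 6) and 3.51 ± 1.65% in OTV:Malat1 (n = 3). The OTV:Malat1 mean was 55.3% of the saline mean, the anti-TfR:Malat1 mean 87.0% and the Malat1 ASO mean 79.5%. By edgeR's quasi-likelihood test on the summed counts, the log2 change of Malat1 in OTV:Malat1 against saline was -0.87 (SE 0.33), with an unadjusted p of 0.0145 and an adjusted p (Benjamini-Hochberg over 1425 genes) of 0.980. The change did not pass the threshold of 0.05. The exact two-sided permutation test of log2(CPM + 1) gave p = 0.171, where 0.0571 is the smallest value that 3 against 4 animals allow. Without OTV:Malat1 replicate 3 the edgeR change was -0.53, and with 5 in place of 3 Sst UMIs as the minimum it was -1.32. That minimum left 72 nuclei and none in saline replicates 3 and 4.

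The other comparisons of Malat1 did not pass either. By edgeR, anti-TfR:Malat1 against saline gave a log2 change of -0.23 (SE 0.27, adjusted p 0.999), with an exact permutation p of 0.552. Malat1 ASO against saline gave -0.35 (SE 0.30, adjusted p 1.00 by edgeR), with an exact permutation p of 0.371. Both moved with single saline animals: without saline replicate 3 they were -0.06 and -0.17, and without saline replicate 4 they were -0.43 and -0.55. With animals of 8 or more Sst nuclei, a setting chosen after seeing the data, they were -0.47 and -0.52. The comparisons with saline share the saline animals.

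The pairs of agents were compared in the same way, with 3 pairs among the 6 comparisons. By edgeR, OTV:Malat1 against anti-TfR:Malat1 at the same labelled dose gave -0.63 (SE 0.30, adjusted p 0.867) and an exact permutation p of 0.0952, where 0.0238 is the smallest possible. Without OTV:Malat1 replicate 3 this was -0.29, and with animals of 8 or more Sst nuclei it was -0.24. At different labelled doses, OTV:Malat1 against Malat1 ASO gave -0.52 (SE 0.32, edgeR adjusted p 0.938). This was -0.18 without OTV:Malat1 replicate 3 and -0.20 with animals of 8 or more Sst nuclei. Also at different labelled doses, anti-TfR:Malat1 against Malat1 ASO gave 0.12 (SE 0.27, edgeR adjusted p 1.00). The latter value was -0.04 without Malat1 ASO replicate 4. Adjusted over the 6 comparisons, the exact permutation p-values ranged from 0.514 to 0.552.

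The samples fell into 4 deposited batches, of which batch 1 held no OTV:Malat1 animal. What a batch stands for was not given. Saline replicate 4, the low saline animal, was the saline animal of batch 4. Within batches 2, 3 and 4 the OTV:Malat1 animal had the lowest Malat1, with log2 differences from saline of -0.54, -0.85 and -1.19. The Malat1 ASO animal was below saline in all 4 batches, by -0.37, -0.43, -0.31 and -0.16. For anti-TfR:Malat1 the differences from saline were -0.91, -0.17, -0.44 and 0.62, so batch 4 went the other way. For OTV:Malat1 against anti-TfR:Malat1 they were -0.38, -0.41 and -1.81. With labels moved only within batches, the exact permutation p was 0.25 for OTV:Malat1 against saline, 0.611 for anti-TfR:Malat1, 0.125 for Malat1 ASO and 0.111 for the conjugates. Apart from anti-TfR:Malat1, these are the smallest values the batches allow.

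Single nuclei showed where the OTV:Malat1 values lay. For equal depth, 1000 UMIs were drawn from every nucleus, and low Malat1 was defined as under 26 UMIs of it, the 10th percentile of saline Sst nuclei with animals weighted equally. Low nuclei were 2 of 72 in saline, 2 of 59 in Malat1 ASO, 8 of 72 in anti-TfR:Malat1 and 9 of 22 in OTV:Malat1. Of the 8 in anti-TfR:Malat1, 6 came from replicate 1. These counts depend on the setting: in the same order of groups they were 7, 18, 24 and 12 at 500 UMIs, 3, 8, 14 and 10 at 2000 UMIs, and 13, 21, 27 and 12 at the 25th percentile. The limit changed with the setting. It was under 19 Malat1 UMIs of 500, under 65 of 2000 and, at the 25th percentile, under 41 of 1000. The OTV:Malat1 animals had 2 of 9, 3 of 8 and 4 of 5 low nuclei. Without thinning, the median over all nuclei of a group of the Malat1 percent was 6.16% in saline and 3.84% in OTV:Malat1.

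**Figure D4:**
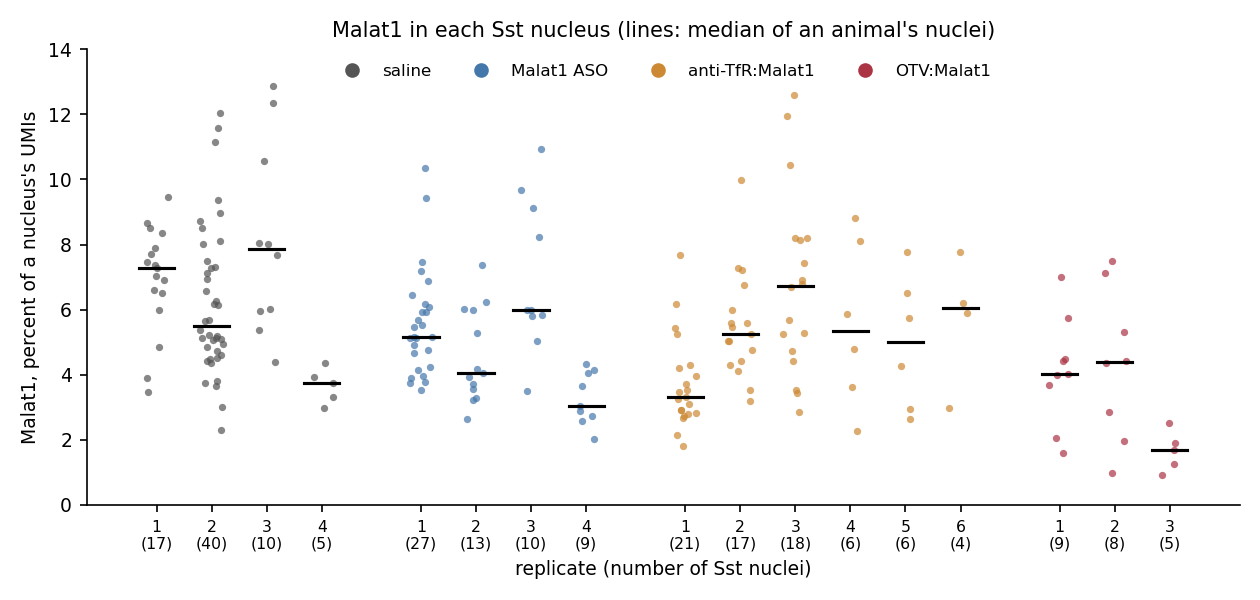
Malat1 as a percent of the UMIs of each Sst nucleus (vertical axis), by replicate within each group, with the number of nuclei in brackets. Each point is a nucleus and each line an animal's median. The highest OTV:Malat1 nucleus is at 7.48% and the highest saline nucleus at 12.9%.

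Per animal, low nuclei made up 5.63 ± 9.66% in saline (n = 4), 4.70 ± 5.60% in Malat1 ASO (n = 4), 10.3 ± 12.1% in anti-TfR:Malat1 (n = 6) and 46.6 ± 29.9% in OTV:Malat1 (n = 3). The OTV:Malat1 animals (22.2% to 80.0%) lay above saline (0% to 20%) at this setting. The nearest animals were at 2 of 9 and 1 of 5 nuclei, so nothing is read from this gap. The limit was set on the saline nuclei, so the differences from saline are given with no test. For OTV:Malat1 the difference from saline was 40.9 points. The difference from anti-TfR:Malat1 was 36.3 points (exact two-sided permutation p 0.0476, and 0.114 adjusted over the 4 comparisons computed), and these groups overlapped through anti-TfR:Malat1 replicate 1 at 28.6%. This difference was 29.2 points at 500 UMIs, 32.5 at 2000 UMIs and 26.6 at the 25th percentile, with exact permutation p of 0.143, 0.167 and 0.190 (unadjusted), so its unadjusted p was under 0.05 at none of these settings. Without OTV:Malat1 replicate 3 the differences were 24.2 and 19.5 points. The differences from saline were 4.69 points for anti-TfR:Malat1 and -0.92 points for Malat1 ASO. The anti-TfR:Malat1 difference was 21.9 points at 500 UMIs, 14.5 at 2000 UMIs and 9.25 at the 25th percentile, and 1.04 without its replicate 1. The Malat1 ASO difference turned to 25.7 points at 500 UMIs, 14 at 2000 UMIs and 14.2 at the 25th percentile. Within batches, the exact permutation p for OTV:Malat1 against anti-TfR:Malat1 was 0.111, the smallest possible.

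The response of Sst nuclei was then set against other neurons of the same animal. In Sox6 interneurons without Sst, Malat1 was 2.29 ± 0.642% in OTV:Malat1 and 6.24 ± 1.71% in saline. The log2 difference between Sst nuclei and these interneurons was 0.01 ± 0.08 in saline (SD, n = 4), 0.01 ± 0.17 in anti-TfR:Malat1 (n = 6), -0.30 ± 0.19 in Malat1 ASO (n = 4) and 0.51 ± 0.45 in OTV:Malat1 (n = 3). In OTV:Malat1 the 3 animals stood at 0.85, 0.69 and 0.00, so 2 of them had more Malat1 in Sst nuclei. The difference of differences between OTV:Malat1 and saline was 0.50 (exact permutation p 0.171). Between Malat1 ASO and saline, also against Sox6 interneurons, it was -0.31 (exact permutation p 0.0286, the smallest possible). With labels moved only within batches, the exact permutation p of this value was 0.125, the smallest the batches allow. Against the other classes the OTV:Malat1 difference of differences from saline had the opposite sign, at -0.38 for Vip interneurons, -0.41 for Adarb2 interneurons and -0.37 for excitatory neurons (exact permutation p 0.514, 0.171 and 0.457). Before saline was subtracted, OTV:Malat1 replicate 3 stood at -0.88, -0.66 and -1.29 and the other OTV:Malat1 animals at -0.22 to 0.53. The saline means on that scale were 0.31, 0.39 and -0.17. None of the 16 such comparisons, which also took Vip interneurons, Adarb2 interneurons and excitatory neurons, passed after adjustment (adjusted exact permutation p 0.381 to 0.914). Vip interneurons numbered as few as 3 per animal.

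No other gene passed the threshold in Sst nuclei. Beside Malat1, 1424 genes had counts high enough for the test, and edgeR called 0 of them in each of the 6 comparisons (0% of 1425 genes in all 6, Malat1 included). At an unadjusted p of 0.05 or less by edgeR, 4.56% of the 1425 genes lay below the limit in OTV:Malat1 against saline, 3.02% in anti-TfR:Malat1 against saline and 2.32% in Malat1 ASO against saline. The share was 5.54% in OTV:Malat1 against anti-TfR:Malat1, 5.4% in OTV:Malat1 against Malat1 ASO and 2.18% in anti-TfR:Malat1 against Malat1 ASO. Beside Malat1, this was 64 genes for OTV:Malat1 against saline, 29 of them higher and 35 lower. It was 43 for anti-TfR:Malat1 and 33 for Malat1 ASO against saline. For OTV:Malat1 against anti-TfR:Malat1 it was 78, for OTV:Malat1 against Malat1 ASO 77 and for anti-TfR:Malat1 against Malat1 ASO 31. DESeq2 also called 0 genes in each comparison, with 41, 22, 14, 56, 59 and 14 genes at an unadjusted p under 0.05 in the same order.

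The genes with the smallest p are named as not past the threshold. In OTV:Malat1 against saline they were Slc8a3, a sodium-calcium exchanger (log2 change -1.13), Zcchc18 (1.09), the mitochondrial aspartate-glutamate carrier Slc25a12 (-1.23), A330008L17Rik (1.63) and Rab3gap2 (1.17), with an edgeR adjusted p of 0.980 each. Slc25a12 lay at 69.3 to 80.5 CPM in OTV:Malat1 and 153 to 181 CPM in saline. Picking genes by their p favours groups that do not overlap, so nothing is read from a lack of overlap. Rab3gap2, a subunit of a regulator of the vesicle protein Rab3, lay at 190 to 271 CPM in OTV:Malat1 and 65.3 to 117 CPM in saline. A330008L17Rik was at 0 in 1 OTV:Malat1 animal and its groups overlapped. Against anti-TfR:Malat1, the OTV:Malat1 changes were 2.13 for A330008L17Rik, -1.40 for Slc25a12 and 1.38 for Rab3gap2 (edgeR adjusted p 0.534), 0.92 for Samd5 and -1.06 for Slc8a3 (0.867). These comparisons share the OTV:Malat1 animals.

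In anti-TfR:Malat1 against saline the smallest p belonged to the growth factor gene Fgf1 (log2 change -1.29), Arhgef11 (-0.76), Dennd4a (0.82), the cyclic AMP phosphodiesterase gene Pde4d (-0.58) and Filip1 (0.98), all with an edgeR adjusted p of 0.999. In Malat1 ASO against saline they were Dennd4a (1.16), Xylt1 (-1.19), Gm47283 (-1.99), Ktn1 (-0.67) and Klhl32 (-0.74), with an edgeR adjusted p of 1.00. Dennd4a lay at 43.5 to 109 CPM in saline and 163 to 319 CPM in Malat1 ASO. Here too the genes were picked by their p, and nothing is read from a lack of overlap.

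Gene lists were read by role, each against the median change of all genes tested, which was 0.01 for OTV:Malat1, -0.01 for anti-TfR:Malat1 and 0.00 for Malat1 ASO, all against saline. No member of any list passed in any of the 4 main comparisons. Of 36 ion channel genes, 22 were tested, with a median log2 change of -0.12 in OTV:Malat1 and 4 unadjusted p-values under 0.05 by edgeR, beside 4.56% of all genes tested. Among them Kcnd2, which carries A-type potassium current, was at 2759 ± 376 CPM in saline (n = 4) and 1575 ± 663 CPM in OTV:Malat1 (n = 3), a log2 change of -0.82. Kcnc2, a fast delayed rectifier channel, had a change of -0.73. The other two, named after their values were seen, were the potassium channel gene Kcnj3 at -1.16 and the calcium channel gene Cacna1b at 0.61.

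Of 22 glutamate receptor genes, 16 were tested, with a median of 0.11 in OTV:Malat1. Grm7, which encodes mGluR7, was at 1953 ± 392 CPM in saline and 2849 ± 85.6 CPM in OTV:Malat1, a change of 0.51. Grm7 was the 1 member of the 16 with an unadjusted edgeR p under 0.05, beside 4.56% of all genes tested, and nothing is read from this count. Gria1 had a change of 0.24, Grik2 0.46 and Grm5 0.30. Grik2 was at 3138 ± 2013 CPM in OTV:Malat1, with animals from 1922 to 5462 CPM, beside 1866 to 2422 CPM in saline. None of these 4 passed.

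The Sst subtype list had 9 of 24 genes tested and a median of 0.11 in OTV:Malat1 against saline. Grin3a had a change of -0.21, Reln 0.11 and Col25a1, a membrane collagen gene, -1.03. The regulators of interneuron identity had 6 of 20 tested and a median of 0.06. Npas3 had a change of 0.12, Sox6 -0.52, Zeb2 -0.22 and Tox -0.01. The neuropeptide and transmitter receptor list had 5 of 25 tested and a median of -0.36, and its most abundant member Chrm3 had a change of 0.20. In the GABA list 9 of 21 were tested, with a median of -0.08. Its scaffold gene Gphn, which anchors GABA-A receptors, had a change of -0.09.

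Synaptic adhesion genes had 22 of 28 tested and a median of -0.03. Nrxn3, a presynaptic neurexin, was at 12093 ± 514 CPM in saline and 12928 ± 1287 CPM in OTV:Malat1, with a change of 0.08. Cntnap2, a contactin partner on axons, had a change of 0.07. Other nuclear long noncoding RNAs had 9 of 16 tested and a median of -0.09, and 2 of the 9 had an unadjusted edgeR p under 0.05, beside 4.56% of all genes tested. These 2, named after their values were seen, were Ftx at -0.71 and Kcnq1ot1 at -0.60. Meg3, an imprinted one, had a change of 0.13 and Snhg11 0.16. Neat1, the scaffold RNA of paraspeckles, had 2 UMIs in all Sst nuclei and was not tested.

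Most genes of the lists for activity, the delivery route and stress were detected, but few had counts high enough for the test. The activity-regulated list had 2 of 22 tested. Of these, Homer1, a postsynaptic scaffold gene, had a log2 change of 1.23 in OTV:Malat1 against saline (unadjusted edgeR p 0.0394). It was the 1 member of the 2 under 0.05, beside 4.56% of all genes tested, and nothing is read from this count. Of the transferrin receptor and iron genes, 1 of 16 was tested, the ferritin gene Fth1, with a change of -0.53. Mouse Tfrc had 32 UMIs, was at 0 in 3 animals and was not tested. The RNase H and decay list had 1 of 16 tested (Zcchc7, -0.07) and the endosome and lysosome list 1 of 25 (Ap2b1, -0.22). Of 20 interferon genes 13 were detected and 0 tested. Of 15 p53 target genes 12 were detected and 0 tested.

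The genes of the rule went through the same fit. Sst had an edgeR log2 change of 0.05 in OTV:Malat1, 0.10 in anti-TfR:Malat1 and 0.09 in Malat1 ASO, all against saline. Gad1, one of the enzymes that make GABA, lay at 190, 221 and 194 CPM in OTV:Malat1 and at 276, 310, 326 and 306 CPM in saline. Its log2 change was -0.59, and that of Gad2, the other such enzyme, was 0.03. Since the rule set a minimum on these genes, the values are given with no test.

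Markers of other cells varied between animals. Of the marker genes of other cell classes, Aqp4, Aldh1l1, Gfap and Slc7a10 of astrocytes, Flt1, Cldn5, Vtn, Pdgfrb and Slc6a13 of vessels, Cspg4, Olig2 and Sox10 of precursors and Prr5l of oligodendrocytes had 0 UMIs. Other members of these lists were detected. The 7 precursor markers held 35 UMIs together and the 8 vessel markers 6. Precursor sums began at 0 in each group and reached 65.3 CPM (saline), 62.1 (anti-TfR:Malat1), 38.7 (OTV:Malat1) and 5.44 (Malat1 ASO). Vessel sums also began at 0 and reached 38.7 CPM (OTV:Malat1), 33.8 (Malat1 ASO), 3.65 (saline) and 0 (anti-TfR:Malat1). The part of these sums in the results was not tested. The summed level of 9 excitatory markers was 457 to 734 CPM in saline animals, with 420 to 659 for Malat1 ASO, 378 to 559 for anti-TfR:Malat1 and 443 to 542 for OTV:Malat1. The summed level of 10 markers of other interneuron classes was 61.2 to 150 CPM in saline animals, with 63.8 to 130 for Malat1 ASO, 159 to 381 for anti-TfR:Malat1 and 77.5 to 201 for OTV:Malat1. Of these 10, Htr3a and Sncg were at 0. The anti-TfR:Malat1 animals all lay above the saline animals, and the part of this in the anti-TfR:Malat1 results was not tested. The summed level of 8 microglial markers was 30.6 to 174 CPM in saline animals, with 33.8 to 70.7 for Malat1 ASO, 0 to 37.9 for anti-TfR:Malat1 and 0 to 40.2 for OTV:Malat1, so both conjugate groups reached lower than saline. The 8 astrocyte markers summed to 43.5 to 61.2 CPM in saline animals, with 12.7 to 42.5 for Malat1 ASO, 0 to 61.3 for anti-TfR:Malat1 and 40.2 to 155 for OTV:Malat1. Their part in the results was not tested. The 14 markers of GABAergic neurons outside cortex and hippocampus summed to 160 to 522 CPM in saline, 250 to 468 for Malat1 ASO, 186 to 422 for anti-TfR:Malat1 and 194 to 329 for OTV:Malat1. The 8 oligodendrocyte markers summed to 30.6 to 146 CPM in saline and 38.7 to 282 in OTV:Malat1.

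The share of Sst nuclei among GABAergic nuclei varied more between animals than between groups. It was 1.97%, 4.65%, 1.73% and 0.945% in saline, and 1.77%, 0.973% and 1.00% in OTV:Malat1. It was 3.5%, 1.69%, 1.77% and 1.63% in Malat1 ASO, and 3.26%, 2.15%, 3.07%, 1.08%, 0.849% and 0.510% in anti-TfR:Malat1. The group means were 2.32 ± 1.61% in saline (n = 4), 2.15 ± 0.905% in Malat1 ASO (n = 4), 1.82 ± 1.18% in anti-TfR:Malat1 (n = 6) and 1.25 ± 0.451% in OTV:Malat1 (n = 3). The exact two-sided permutation p was 0.4 for OTV:Malat1, 0.590 for anti-TfR:Malat1 and 0.771 for Malat1 ASO against saline, and 0.5 for OTV:Malat1 against anti-TfR:Malat1 (0.771 each after adjustment over 4).

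The share also differed between batches. Over all GABAergic nuclei of a batch it was 2.85% in batch 1, 2.70% in batch 2, 1.67% in batch 3 and 0.944% in batch 4. Saline replicate 2 at 4.65% set the saline mean. Without it the difference from saline was 0.27 points for anti-TfR:Malat1 and 0.60 points for Malat1 ASO, in place of -0.50 and -0.18 points, and -0.30 points for OTV:Malat1, in place of -1.08. Median UMIs per GABAergic nucleus were 5348 to 6372 in the animals of batch 1 and 3672.5 to 5154 in those of batch 4, and the part of depth in the share was not tested. The level of Sst over all GABAergic nuclei, which needs no minimum, was 38.2, 70.9, 47.2 and 29.2 CPM in saline and 45.2, 49.2 and 37.9 CPM in OTV:Malat1, so these groups overlapped. A smaller share can come from fewer such cells or from less Sst RNA per nucleus, and these cannot be told apart here.

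**Figure D5:**
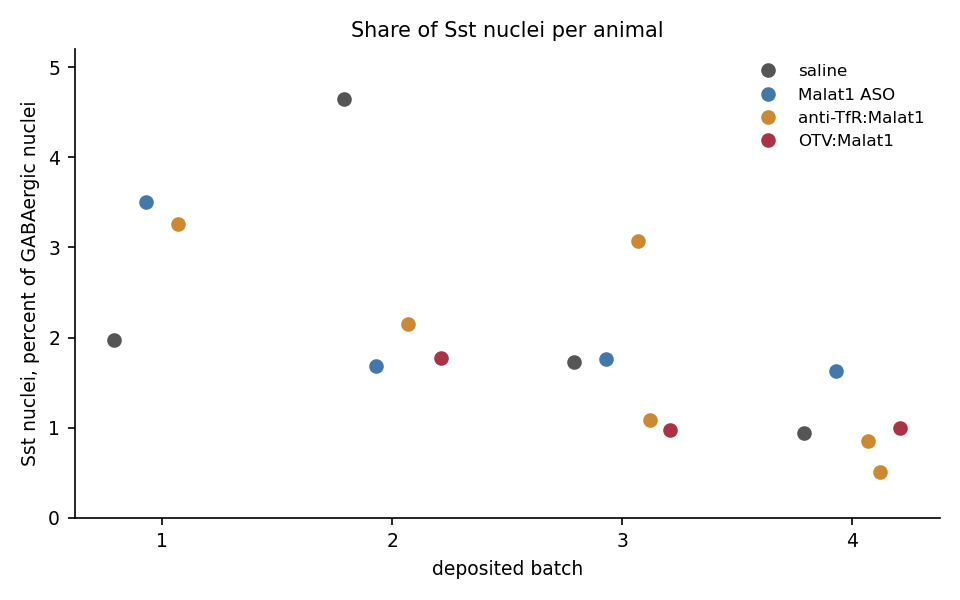
Sst nuclei as a percent of GABAergic nuclei (vertical axis) by deposited batch (horizontal axis), each point an animal coloured by group. Saline replicate 2 is the highest at 4.65%, and the animals of batch 4 lie between 0.510% and 1.63%.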

How the data were processed

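The data were raw UMI counts per gene and nucleus for 26131 genes and 284074 nuclei of 17 mice, deposited by the authors as 1 matrix with a table of labels. Per the labels' protocols, frozen posterior brain was dounced and DAPI-stained nuclei were sorted before 10x library preparation. Cell Ranger 6.0.1, Seurat 4 and the build mm10 are named in the submitters' processing notes. How the labels, doublet calls (16.8% of nuclei) and batches were made is not given in the sources used here, and 12 of the deposited columns were not used. Gene positions are those of GENCODE M21 (GRCm38).

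Counts of Sst nuclei were summed per animal, filtered by filterByExpr, scaled by TMM and fitted over all 17 animals with edgeR 4.0.16 (glmQLFit, glmQLFTest; R 4.3.3), with Benjamini-Hochberg adjustment over all genes tested and a threshold of 0.05. The design asked for 20 or more Sst nuclei per animal, which only 3 animals had, so all animals were used. DESeq2 1.42.0 was an alternative, beside other settings of edgeR. Other tests were exact two-sided permutations over animals (scipy 1.17.1; Python 3.11.15), on log2(CPM + 1) for Malat1. The planned test of Malat1 in Sst nuclei with against without Lhx6 or Sox6 was not run, since no animal had over 6 nuclei without them. The fit was tested on simulated data.

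Comparison classes passed the GABAergic rule with 3 or more UMIs of Sox6, Vip or Adarb2 in turn and fewer than 3 of Sst (with Sox6 and Adarb2 nuclei split by the higher of both genes, Vip nuclei left out), or were neurons with the reverse excitatory rule. Named genes were Malat1, Sst, Gad1, Gad2, Tfrc and Neat1, the 5 smallest p-values of each main comparison where fewer than 5 genes passed, the most abundant members of each list, and the 15 genes with the largest ratio in Sst nuclei. Members and gene lists were chosen with earlier results of these data known. Some genes that the rule for named genes covers are not reported here.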

Additional observations from a re-analysis of the deposited data

Results flagged for a closer look

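In 29 groups of 4 or 6 animals, the highest or lowest animal was checked for a gap to its neighbour that is large beside the range of its group (Dixon's 95% limit). The check marked 5 values. Chance marks about 1 group in 20 only for continuous values, and a group with UMIs in a single animal is always marked. The 5 are therefore not read as more than chance. Malat1 ASO replicate 1 had a Sst share of 3.5% of GABAergic nuclei, with the nearest animal of its group at 1.77%. Saline replicate 4 had 20% of its Sst nuclei low in Malat1, which is 1 of 5 nuclei, with the nearest animal at 2.5%. In anti-TfR:Malat1 replicate 6, which had 4 Sst nuclei, Malat1 was higher in Sst nuclei than in Vip interneurons by 0.47 on the log2 scale, with the nearest animal at 0.26. Neat1 was at 3.65 CPM in saline replicate 2 and at 9.08 CPM in anti-TfR:Malat1 replicate 2, each from 1 UMI, and at 0 in the other animals of both groups.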

How the results depend on the processing

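Of 594 alternative values for the main results, 565 kept their direction and their side of the threshold. Another 23 turned in direction, and 6 counts of called genes moved. Of 543 values for named genes, 539 kept both and 4 passed the threshold. No main result had passed, so keeping its side means that it still did not pass. All 225 Sst nuclei held 2000 or more UMIs, so that setting could not change Malat1 in them. For Malat1 and the counts of genes, leaving out animals of groups not compared was also included. The tally therefore says little about how firm the results are. Without a filter on low counts, edgeR called 1 gene in OTV:Malat1 against saline (Sox5), 2 in anti-TfR:Malat1 (Kcnip4 and Otx2os1), 3 in Malat1 ASO (Meis2, Hs3st4 and Gm47283) and 4 between the conjugates (Tafa1, A330008L17Rik, Ebf1 and Adarb2). Of the 76 UMIs of Meis2, 50 came from 1 animal, and 25 of the 42 of Ebf1. With animals of 8 or more Sst nuclei, chosen after seeing the data, 1 gene was called in OTV:Malat1 against anti-TfR:Malat1 (A330008L17Rik). Leaving out 1 animal at a time gave 0 to 2 calls there, the 2 being A330008L17Rik and Samd4 without OTV:Malat1 replicate 3. The cause was not tested.

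Leaving out 1 animal at a time, the log2 change of Malat1 ranged from -1.16 to -0.53 in OTV:Malat1 against saline, and from -0.040 to 0.32 in anti-TfR:Malat1 against Malat1 ASO. Without saline replicate 4 the first was -1.07, and without saline replicate 3 it was -0.68. The share of Sst nuclei ranged from -0.96 to 0.27 points in anti-TfR:Malat1 and from -0.64 to 0.60 in Malat1 ASO against saline. The low-Malat1 share in Malat1 ASO against saline was 25.7 points at 500 UMIs per nucleus, 14 at 2000 UMIs and 14.2 at the 25th percentile, and -3.06 to 3.87 with 1 animal left out. The log2 difference between Sst nuclei and Sox6 interneurons in anti-TfR:Malat1 against saline ranged from -0.065 to 0.032 and was 0.047 with doublet calls kept. For Vip interneurons it ranged from -0.68 to 0.022 in OTV:Malat1 against saline and from -0.63 to 0.076 in OTV:Malat1 against the other conjugate, and was 0.058 in anti-TfR:Malat1 against saline with doublet calls kept. For Adarb2 interneurons in anti-TfR:Malat1 against saline it ranged from -0.13 to 0.0010. For excitatory neurons it ranged from -0.59 to 0.0040 in OTV:Malat1 against saline, from -0.12 to 0.017 in anti-TfR:Malat1 against saline and from -0.54 to 0.058 between the conjugates. The cause was not tested.

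The labels give groups the same replicate numbers, but the deviations of 2 of 21 same-numbered pairs correlated above 0.1 (range -0.20 to 0.17), so the numbers were not taken to pair the animals. Of 27 pairs of the same batch, 7 were above 0.1 (median 0.03). With a replicate block the log2 change of Malat1 was -0.94 in OTV:Malat1, -0.19 in anti-TfR:Malat1 and -0.34 in Malat1 ASO against saline, and 0 other genes were called, as without it. With batch as a block these were -0.92, -0.15 and -0.34. In 2 of 17 animals the best correlation was with an animal of the same number. The number of nuclei limits these results: at 4 to 40 Sst nuclei per animal, a p that misses the threshold does not show that values were alike. Comparing shares at 2000 UMIs per nucleus left 0 to 3 Sst nuclei per animal.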

Other observations

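Some subtype genes were not seen in the OTV:Malat1 nuclei, which numbered only 22. Cort was found in 14 of 72 saline nuclei (19.4%), 9 of 59 Malat1 ASO nuclei (15.3%), 7 of 72 anti-TfR:Malat1 nuclei (9.72%) and 0 of 22 OTV:Malat1 nuclei. Tacr1 was found in 8 nuclei of each of the other 3 groups and Hpse in 6, 4 and 8, and both in 0 of 22. Chodl was found in 2, 3 and 3 nuclei of those groups, from 7 animals, and also in 0 of 22. Cort was found in only 9 of the 17 animals and Hpse in 10, and for both at least 1 animal of each of the other groups was at 0 too. Tacr1 was found in 12 animals, which included every saline animal (lowest share 2.5%) and every Malat1 ASO animal (lowest share 7.41%). A count of 0 among 22 nuclei allows a share of up to 13.6% of nuclei with a UMI, for counting error only and with no allowance for the spread between 3 animals. More widely found subtype genes were held by the OTV:Malat1 group at 68.2% for Reln, 36.4% for Calb1, 31.8% for Npy and 22.7% for Crhbp, beside 59.7%, 38.9%, 41.7% and 26.4% in saline. These shares pool the nuclei of a group and carry no test.

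The authors' clusters split the class, with 136 nuclei in cluster 4, 86 in cluster 1, 2 in cluster 10 and 1 in cluster 18. Malat1 made up 6.49% of UMIs in cluster 4 and 6.48% in cluster 1 in saline. Saline replicate 3, the saline animal highest in Malat1, gave 8 of the 21 saline nuclei in cluster 1 and 1 of the 48 in cluster 4, so these values mix different animals. In OTV:Malat1 it made up 4.59% in cluster 4 and 2.68% in cluster 1, with 11 nuclei in each. OTV:Malat1 replicate 3, the animal lowest in Malat1, gave 4 of the nuclei in cluster 1 and 1 of those in cluster 4. The split varied within groups: cluster 1 held 1 of 17, 9 of 40, 8 of 10 and 3 of 5 Sst nuclei in the saline animals. The clusters were made from the same counts, so these numbers are given as values only.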
